A study of Homo sapiens with 6 samples.

Results

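Small-cell lung cancer (SCLC) is a neuroendocrine tumour whose cells are sorted into subtypes largely by the transcription factor that dominates them. The 9 genes described here were chosen by name from the factors that define SCLC subtypes (*NEUROD1*, *POU2F3* and *YAP1*), drive or restrain neuroendocrine differentiation (*INSM1*, *PROX1* and *REST*) or mark the foregut and stem cell lineage (*NKX2-1*, *FOXA2* and *SOX2*). All 9 were among the 28395 genes in the count table. RNA was sequenced from H146 (NCI-H146), an established human SCLC cell line, 2 days after transfection with a siRNA against *KIFC1*, a kinesin that clusters surplus centrosomes, or with a scrambled negative control siRNA. There were 3 libraries per group. The control cells are labelled WT and the others KIFC1 knockdown, and both groups received a siRNA and the transfection reagent. A single cell line and a single *KIFC1* siRNA were sequenced, so loss of *KIFC1* and other effects of that siRNA cannot be told apart.

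*INSM1*, *NEUROD1* and *PROX1* encode nuclear factors that direct neural and endocrine differentiation, whereas *REST* encodes a repressor that silences neuronal genes in other tissues by binding a DNA element called RE1. *POU2F3* specifies tuft cells, the chemosensory cells of airway and gut epithelium, and *YAP1* is the coactivator restrained by the Hippo kinases, usually low in neuroendocrine tumours. *NKX2-1* and *FOXA2* pattern the foregut and lung epithelium, and *SOX2* maintains stem cells of the foregut and nervous system. No SCLC subtype was assigned, since not every factor that defines one was analysed here.

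Total counts ran from 15392374 to 17754458 per library, and from 19437 to 20472 genes had a count, the most in siKIFC1 replicate 2. The mitochondrial share was 8.34% to 13.1%, highest in the same library. *KIFC1* was counted 14, 4 and 14 times in the control libraries and 1, 1 and 0 times in the siKIFC1 libraries. Its mean was at least 3.26-fold lower when each siKIFC1 library is set at a floor of 3 counts. Of the 32-base words of its transcript, 87.9% also occur on alternate sequences of GRCh38. How reads that match several places were counted is not stated, so these low counts may not give its full level. Marker genes of several cell types were read. All 12 neuroendocrine markers lay above 3 counts in every control library. So did 4 of 8 tuft cell, 3 of 10 non-neuroendocrine or mesenchymal, 4 of 8 lung epithelial and 5 of 6 blood and stromal markers. Passing this floor therefore does not set the cell types apart, and summed levels are given. The neuroendocrine markers summed to 2864 to 3057 CPM (counts divided by the library's total count and scaled to the same sum in every library) with control siRNA and 2882 to 3296 CPM with siKIFC1. *UCHL1*, *DDC* and *SCG2* were the highest of them. *UCHL1* alone had a control mean of 1234 CPM, while *CHGA*, the lowest of the 12, had 7.71 CPM. The 8 tuft cell markers summed to 12.6 to 18.8 CPM over the 6 libraries and the 10 markers of non-neuroendocrine or mesenchymal cells to 12.6 to 15.6 CPM. Most of the latter sum came from *CCN2*, *MYOF* and *LGALS3* (control means of 7.32, 3.59 and 2.85 CPM), while *CAV1* was at 0 in every control library. The 8 lung epithelial markers summed to 32.03 to 40.6 CPM, mostly *TP63* and *FOXJ1*, and the 6 blood and stromal markers to 12.8 to 19.4 CPM.

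The 9 factors fell into a high and a near-absent group in control cells. Levels of different genes were compared per length, as RPKM (CPM divided by the kilobases of annotated exon). *INSM1* stood highest at 239.3 ± 12.6 RPKM (SD, n = 3), above 99.8% of protein-coding genes. *SOX2* followed at 123.9 ± 3.49 RPKM (SD, n = 3) and *FOXA2* at 69.8 ± 2.41 RPKM (SD, n = 3). *PROX1* came next at 19.3 ± 2.45 RPKM (SD, n = 3). The ranges of these 4 genes over the control libraries did not overlap. Each step down was 1.93-fold from *INSM1* to *SOX2*, 1.77-fold from *SOX2* to *FOXA2* and 3.62-fold from *FOXA2* to *PROX1*. The other 5 factors lay between 0.00641 RPKM (*YAP1*) and 0.0547 RPKM (*NKX2-1*). No fold against them is given, since their counts were at or near the floor of 3. Among these 5, the range of each gene overlapped that of its neighbour in the order *NKX2-1*, *REST*, *NEUROD1*, *POU2F3*, *YAP1*, so their order was not resolved.

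**Figure D1:**
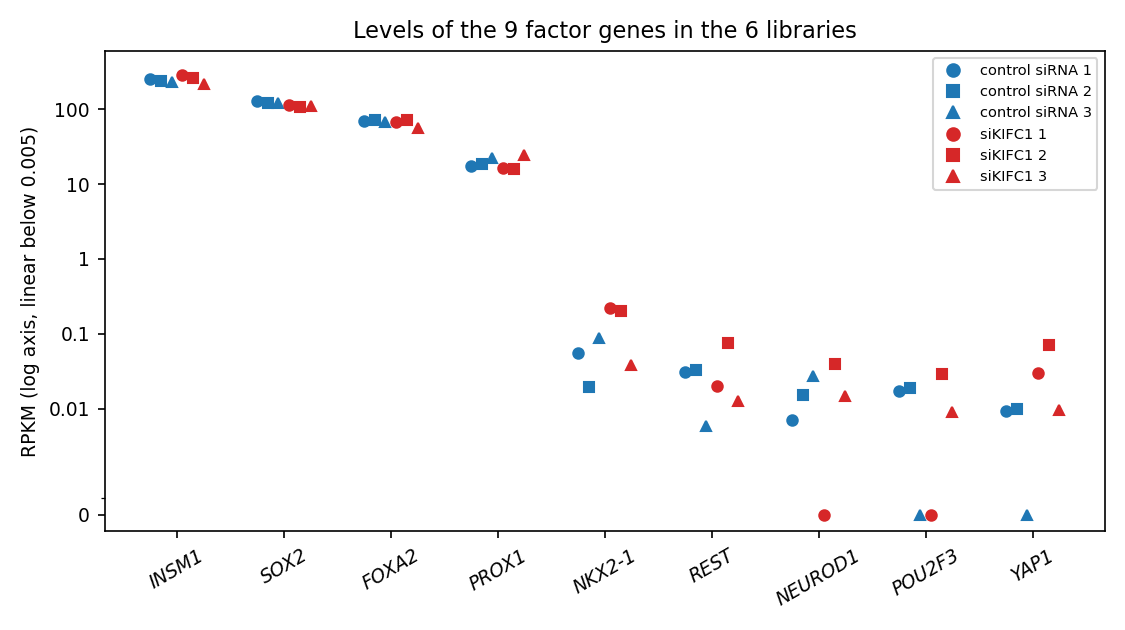
RPKM (log axis, linear below 0.005) of the 9 factor genes, with 1 point per library, control siRNA in blue and siKIFC1 in red, and the symbol giving the replicate number. *INSM1*, *SOX2*, *FOXA2* and *PROX1* sit above 10 RPKM in all 6 libraries, and the other 5 genes stay below 0.3 RPKM in all 6.

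After KIFC1 knockdown, none of the 4 factors that could be tested was called. They passed the filter on low counts (edgeR's filterByExpr), and the other 5 did not. Using the quasi-likelihood test of edgeR, with Benjamini-Hochberg adjustment over 14776 genes and a threshold of 0.05, 0 of *INSM1*, *SOX2*, *FOXA2* and *PROX1* were called. Of all genes tested, 0.711% were called, 0.332% as higher and 0.379% as lower. At an unadjusted p under 0.05 the count was again 0 of 4, against 9.24% of all genes. DESeq2 and limma-voom also called 0 of the 4. A fit blocked on replicate number called 5.78% of all genes and again 0 of the 4. In bulk RNA, fewer cells carrying a transcript and less transcript per cell cannot be told apart.

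*INSM1* (NCBI gene ID 3642) encodes a zinc finger repressor needed for endocrine and neuroendocrine differentiation, and its RefSeq position in GRCh38 is chromosome 20 from 20368104 to 20370949. Its level was 720.4, 672.6 and 650.5 CPM in the control libraries and 821.4, 747.5 and 608.3 CPM in the siKIFC1 libraries. The groups overlapped, since siKIFC1 replicates 1 and 2 lay above every control library and replicate 3 below every one. The log2 fold change was 0.10 (standard error, SE, 0.12, 95% interval -0.16 to 0.37), with an edgeR adjusted p of 0.891. As a fold, the interval runs from 0.892 to 1.29.

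*SOX2* (gene ID 6657) encodes a factor of the SOX family that is often amplified in SCLC, and it occupies chromosome 3 from 181711925 to 181714436 as a single exon. It had 321.4, 307.1 and 305.4 CPM with control siRNA and 282.7, 266.3 and 273.8 CPM with siKIFC1. Every siKIFC1 library lay below every control library. Of all genes tested, 7.65% had siKIFC1 libraries all below the controls, so the separation was common in these data. The log2 fold change of *SOX2* was -0.17 (SE 0.10, 95% interval -0.38 to 0.04), and its edgeR adjusted p was 0.673, or 0.226 in the fit blocked on replicate number. Joined by number, the 3 pairs of libraries gave log2 ratios of -0.23, -0.18 and -0.10, all 3 lower with siKIFC1.

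*SOX2* stands inside an intron of *SOX2-OT*, a long noncoding RNA read from the same strand (chromosome 3, 181056680 to 181742228), with 0 shared exonic bases in GENCODE 44. *SOX2-OT* was counted 1559, 1223 and 1494 times in the control libraries and 1124, 867 and 995 times after siKIFC1. Its level was 84.0 ± 7.15 CPM and 63.0 ± 8.17 CPM (SD, n = 3). All 3 siKIFC1 libraries were below all 3 controls, as for 7.65% of all genes tested. The log2 fold change was -0.41 (SE 0.12, edgeR adjusted p = 0.237), and the blocked edgeR fit gave an adjusted p of 0.00435.

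*FOXA2* (gene ID 3170) encodes a pioneer factor of foregut endoderm, on chromosome 20 from 22580998 to 22585490. It had 189.6, 196.4 and 183.3 CPM with control siRNA and 180.1, 196.8 and 152.1 CPM with siKIFC1. The groups overlapped, with siKIFC1 replicate 3 the lowest of the 6 libraries and siKIFC1 replicate 2 the highest. The log2 fold change was -0.09 (SE 0.12, 95% interval -0.35 to 0.16, edgeR adjusted p = 0.897), and it was 0.00 without siKIFC1 replicate 3. The noncoding gene *LINC00261*, which lies beyond the 3′ end of *FOXA2* on the same strand (22560553 to 22578642), had 250.3 ± 16.1 CPM with control siRNA and 298.9 ± 41.0 CPM with siKIFC1 (SD, n = 3). Its log2 fold change was 0.27 (SE 0.11, edgeR adjusted p = 0.490), and the blocked edgeR fit gave an adjusted p of 0.0417.

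*PROX1* (gene ID 5629), a homeobox gene of neural, hepatic and lymphatic development, lies on chromosome 1 from 213983151 to 214041510. It had 154.5, 164.4 and 196.3 CPM with control siRNA and 146.3, 139.9 and 217.2 CPM with siKIFC1. Replicate 3 was the highest library in both groups, and siKIFC1 replicates 1 and 2 lay below every control. The log2 fold change was -0.02 (SE 0.16, 95% interval -0.36 to 0.33, edgeR adjusted p = 0.992). This value rested on single libraries. It was -0.25 without siKIFC1 replicate 3 and 0.09 without siKIFC1 replicate 2. The antisense gene *PROX1-AS1*, which shares 163 exonic bases with *PROX1* on the opposite strand, had only 26 to 43 counts per library. Whether the authors' counting used strand is not stated.

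**Figure D2:**
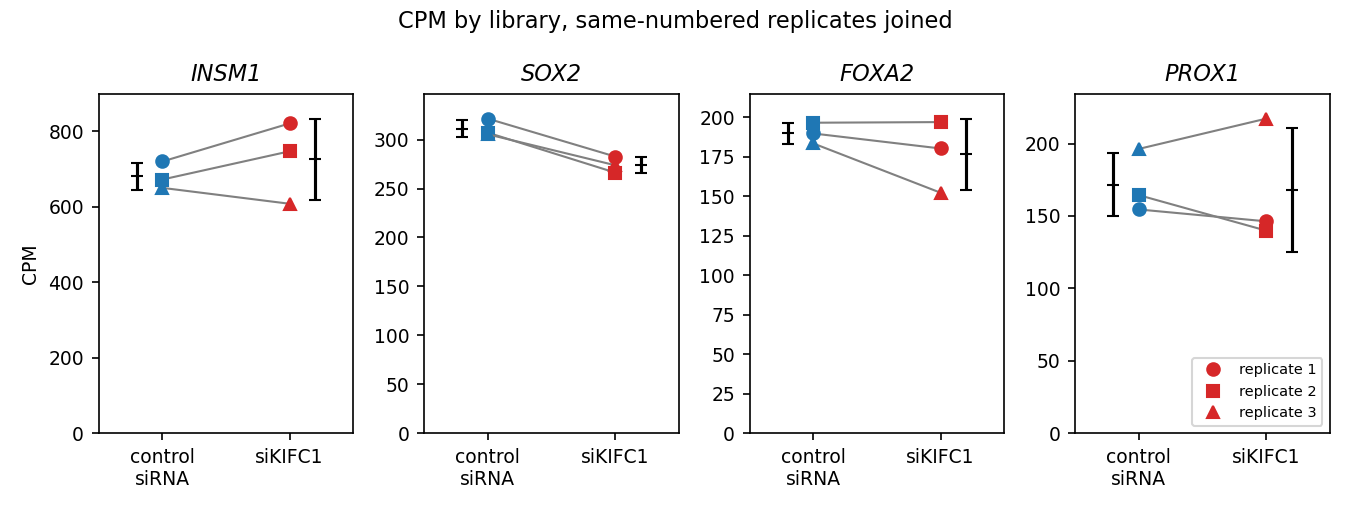
CPM of *INSM1*, *SOX2*, *FOXA2* and *PROX1* with control siRNA (blue) and siKIFC1 (red), axes from 0, where grey lines join libraries with the same replicate number and black bars give the mean ± SD of 3 libraries. Only the *SOX2* groups do not overlap, with controls from 305.4 to 321.4 CPM and siKIFC1 libraries from 266.3 to 282.7 CPM.

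**Figure D3:**
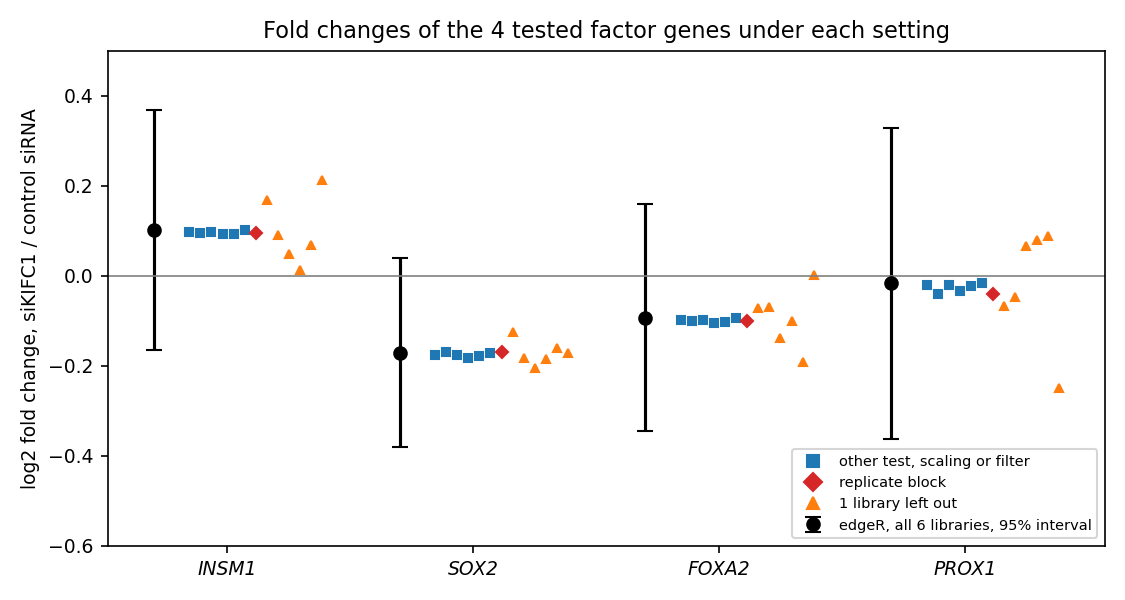
Log2 fold change (siKIFC1 over control siRNA) of the 4 tested factors, with the edgeR value and its 95% interval in black, other tests, scalings and filters in blue, the replicate block in red and fits with 1 library left out in orange. *SOX2* stays between -0.21 and -0.12 and *INSM1* between 0.01 and 0.21, while *PROX1* lies on both sides of 0.

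The 5 remaining factors were counted at most 11 times in any library. A level at or under 3 counts was taken as the floor, which is 0.169 to 0.195 CPM at these depths, and it covers counting error only, as do the intervals of the ratios below. *NEUROD1* (gene ID 4760, chromosome 2, 181668295 to 181680517), the neurogenic factor that names an SCLC subtype, was counted 1, 2 and 4 times in the control libraries and 0, 5 and 2 times after siKIFC1. Pooled over the control libraries this was 0.138 CPM (95% exact Poisson interval 0.0554 to 0.284). *POU2F3* (gene ID 25833, chromosome 11, 120236638 to 120319945) was counted 2, 2 and 0 times in the control libraries and 0, 3 and 1 times after siKIFC1, none above the floor. A count of 0 allowed up to 0.169 CPM in control replicate 3. For both genes the ratio of summed counts, siKIFC1 over control, was 1.07, with exact intervals of 0.320 to 3.58 for *NEUROD1* and 0.199 to 5.75 for *POU2F3*.

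*YAP1* (gene ID 10413, chromosome 11, 102110447 to 102233424) was counted 1, 1 and 0 times in the control libraries and 3, 7 and 1 times after siKIFC1. *NKX2-1* (gene ID 7080, chromosome 14, 36516397 to 36520232), which encodes the lung marker TTF-1, was counted 3, 1 and 5 times in the control libraries and 11, 10 and 2 times after siKIFC1. The groups overlapped for both genes. The ratio of summed counts was 5.89 for *YAP1* (95% exact interval 1.28 to 54.7) and 2.74 for *NKX2-1* (1.22 to 6.72). When all genes were fitted without the filter, the edgeR adjusted p was 0.613 for *YAP1* and 0.609 for *NKX2-1*. Without siKIFC1 replicate 2, an alternative chosen after the data were seen, the ratios were 3.17 (0.454 to 35.0) and 2.29 (0.905 to 6.07). That library held 36 counts of the 5 genes together, against 8 and 17 in the other siKIFC1 libraries and 10 to 12 in the controls. It also had the most genes with a count and the largest mitochondrial share, and their part in these counts was not tested.

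*REST* (gene ID 5978) lies on chromosome 4 from 56907900 to 56935844. It was counted 5, 5 and 1 times in the control libraries and 3, 11 and 2 times after siKIFC1. Its pooled control level was 0.217 CPM (95% exact Poisson interval 0.108 to 0.388). The ratio of summed counts was 1.56 (0.679 to 3.71), and it was 0.720 (0.196 to 2.25) without siKIFC1 replicate 2. How reads that match several places were counted is not stated, so the transcripts of all 9 factors were compared with 261 alternate sequences of GRCh38 in words of 32 bases. For *YAP1*, *NKX2-1* and *REST*, 0 of the words occurred there, as for *INSM1*, *FOXA2* and *SOX2*. The share was 0.406% for *NEUROD1*, 0.391% for *PROX1* and 3.72% for *POU2F3*, against 87.9% for *KIFC1*, and the part of such copies in the counts was not tested.

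Genes that carry RE1 elements were examined because *REST* acts through them. Of 30 neuronal genes known for such an element, 27 had more than 3 counts in at least 1 control library and 25 passed the filter. The median control level over the list was 10.9 RPKM, where the medians of the 9 lists ran from 0.131 to 13.3 RPKM. *REST* itself had 0.0235 RPKM, and a link between these levels was not tested. The list shares *CHGA*, *SYP*, *SCG2*, *SCG3*, *BEX1* and *STMN2* with the neuroendocrine markers, so it is not separate from them. The intermediate filament gene *INA* (464.7 ± 2.28 CPM) and the neuronal tubulin gene *TUBB3* (383.8 ± 24.1 CPM, SD, n = 3) had the highest CPM. The reference genome was searched on both strands, within 5000 bases of each start site, for CAGNACC and GGACAG separated by 2 bases (N stands for any base). The pattern lay near 13 of the 30 genes (43.3%), against 1.29% of 20046 protein-coding genes and 0 of the 9 factors. A match is a description of the letters and no evidence of binding, and since the list was made of genes known for the element, its share was set by that choice. The sites of 6 of these genes are shown 5′ to 3′ on the strand that carries the pattern, so that the letters they share can be compared, with the searched 15 bases in capitals:
CHGA: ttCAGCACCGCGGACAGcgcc
SYN1: ttCAGCACCGCGGACAGtgcc
SNAP25: ttCAGCACCGGGGACAGcggt
SYP: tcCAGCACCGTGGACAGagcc
INA: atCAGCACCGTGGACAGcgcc
TUBB3: gtCAGCACCAAGGACAGcgcc

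In GRCh38, the *CHGA* site is at chr14:92923523-92923543 on the plus strand, in an intron, its centre 382 bases downstream of the start site. The *SNAP25* site is at chr20:10219672-10219692 on the plus strand, also intronic (851 bases downstream). The *SYP* site at chrX:49200122-49200142 on the minus strand is in an intron 60 bases downstream. The *INA* site at chr10:103279008-103279028 on the minus strand lies in an intron 1881 bases downstream, and that of *TUBB3* at chr16:89926504-89926524 on the plus strand in an intron 3171 bases downstream. The *SYN1* site at chrX:47620070-47620090 on the minus strand is outside the transcript, with its centre at -224. These genes code for a secretory granule protein (*CHGA*), synaptic vesicle proteins (*SYN1* and *SYP*), a membrane fusion protein of the synapse (*SNAP25*) and cytoskeletal proteins.

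After KIFC1 knockdown, 0 of the 25 tested RE1 genes were called (0.711% of all genes), with 14 log2 fold changes above 0 and 11 below. Their median log2 fold change was 0.02, against 0.01 for all genes. In the fit blocked on replicate number, *RUNDC3A* (edgeR adjusted p = 0.000151) and *BEX1* (0.0440) were higher and *UNC13A* (0.00362) was lower (named after their values were seen), in a fit that called 5.78% of all genes. *CHGA* had the largest fitted change of the list. It was counted 147, 104 and 142 times in the control libraries and 145, 818 and 482 times after siKIFC1. The count in siKIFC1 replicate 1 lay within the control counts, but as CPM it was just above every control. The other siKIFC1 libraries lay far above. Groups without overlap as CPM, in either direction, made up 15.1% of all genes tested, including the 7.65% with siKIFC1 lower. The log2 fold change of *CHGA* was 2.00 (SE 0.66, edgeR adjusted p = 0.436). It became 2.44 without siKIFC1 replicate 1, the siKIFC1 library nearest the controls, and 1.33 without siKIFC1 replicate 2. The edgeR adjusted p was 0.00112 in the first of these fits, 0.404 in the second, 0.374 without siKIFC1 replicate 3 and 0.483 with the block, and the DESeq2 value was 0.128.

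*HDAC1* was the only gene of the partner and pathway lists that was called, 1 of 136 tested, a share near the 0.711% of all genes. It encodes a histone deacetylase that serves corepressor complexes of both INSM1 and REST. It was counted 1727, 1422 and 1672 times in the control libraries and 2512, 2175 and 2206 times after siKIFC1, and every siKIFC1 library was above every control. Of all genes tested, 15.1% had groups without overlap in either direction, a share that includes the 7.65% with siKIFC1 lower. The mean of *HDAC1* rose from 94.8 ± 5.84 CPM to 145.5 ± 14.0 CPM (SD, n = 3), and its log2 fold change was 0.63 with an SE of 0.11 (edgeR adjusted p = 0.0274). The call was held by every alternative test, scaling and filter, but it was lost without control replicate 1, 2 or 3 and without siKIFC1 replicate 1 or 2 (edgeR adjusted p from 0.0538 to 0.198). The related *HDAC2* had 347.3 ± 33.1 CPM with control siRNA and 359.3 ± 30.1 CPM with siKIFC1 (SD, n = 3, edgeR adjusted p = 0.940).

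All 17 listed partners of NEUROD1 and INSM1 passed the filter, and *HDAC1* was the 1 called. The highest were *TCF4*, an E protein that pairs with neurogenic factors (406.2 ± 38.6 CPM), and *ID2*, an inhibitor of such pairs (461.1 ± 30.2 CPM, SD, n = 3, control siRNA). The blocked edgeR fit called *HDAC1*, *ID1*, *ID3* and *ID4* higher and 0 lower, 4 of 17 against 5.78% of all genes in that fit (the *ID* genes were named after their values were seen). Of the 18 REST cofactors and regulators, 17 passed the filter and *HDAC1* was again the only call, also with the block. The splicing regulator *PTBP1* was the highest of them (349.6 ± 10.9 CPM, SD, n = 3). *SRRM4*, whose product splices *REST* into a truncated form in neural cells, was counted 689, 711 and 905 times in the control libraries and 516, 566 and 763 times after siKIFC1 (named after its values were seen; log2 fold change -0.21, edgeR adjusted p = 0.748). The histone methyltransferase gene *EHMT2* had at most 8 counts in a library, and 80.5% of its 32-base words occurred on alternate sequences.

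Of 36 other neuroendocrine and neural factors, 26 passed the filter and 0 were called, with a median log2 fold change of -0.08. *HES6*, a bHLH gene of neuroendocrine cells, reached 160.7 RPKM with control siRNA, between *INSM1* and *SOX2*. Of the relatives of *NEUROD1*, *NEUROD2* had at most 9 counts and *NEUROD4* at most 1 in any library, and *NEUROD6* had 0 (named after their values were seen). *NKX2-2*, a homeobox gene of endocrine and neural progenitors, was counted 452, 364 and 436 times in the control libraries and 593, 637 and 546 times after siKIFC1. Every siKIFC1 library was above every control, from 24.6 ± 1.78 to 37.5 ± 4.12 CPM (SD, n = 3). Of all genes, 15.1% lacked overlap in either direction, including the 7.65% with siKIFC1 lower. The log2 fold change of *NKX2-2*, 0.62 (SE 0.13), had an edgeR adjusted p of 0.0510, just over the threshold. It was 0.000332 in the blocked edgeR fit, 0.00391 in edgeR without the filter and 0.00367 with DESeq2, but 0.0595 with limma-voom and 0.0520 to 0.0569 in edgeR under other scalings. With a library left out, the edgeR adjusted p was 0.00377 without siKIFC1 replicate 3 and 0.131 to 0.319 without any of the others. The block also called *SOX4* and *NFIB* lower (both named after their values were seen).

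**Figure D4:**
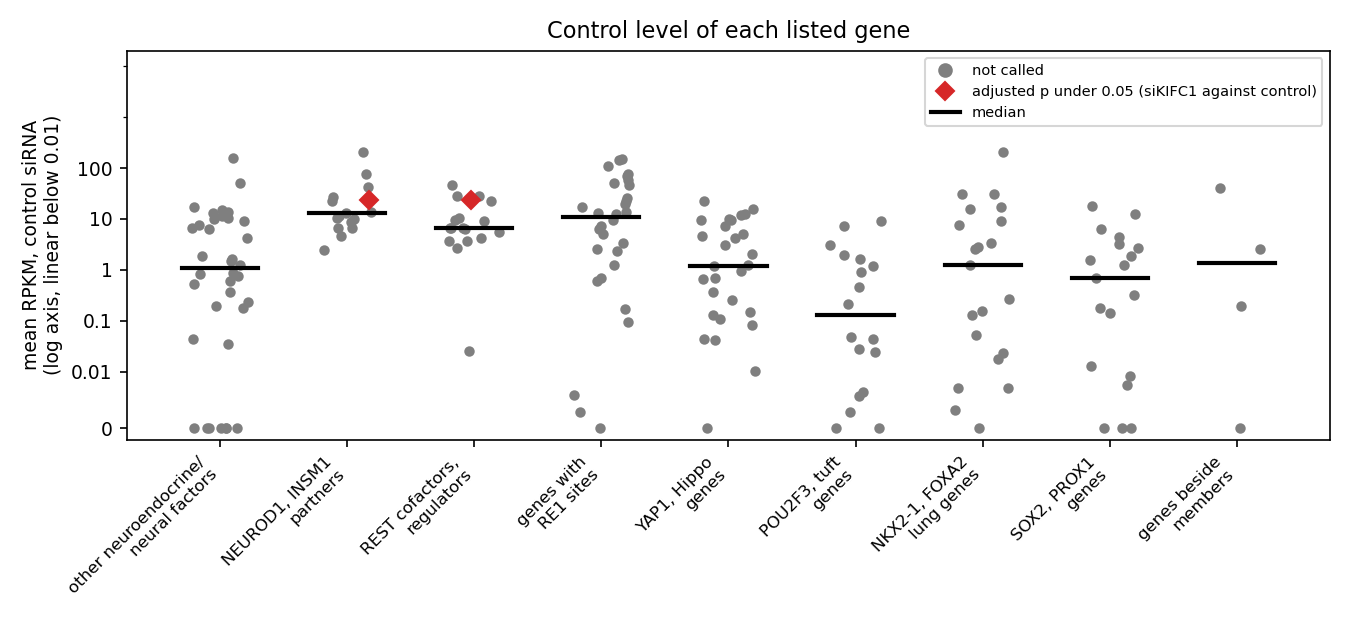
Mean control siRNA level in RPKM (log axis, linear below 0.01) of each gene in the 9 partner and pathway lists, where points are genes, bars are list medians and red diamonds mark the gene called after KIFC1 knockdown. The median is highest for the NEUROD1 and INSM1 partners (13.3 RPKM) and lowest for the tuft cell genes (0.131 RPKM).

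Most genes around *YAP1* were detected in the control libraries. Of 28 Hippo pathway genes and YAP1 targets, 26 had more than 3 counts in at least 1 control library and 23 passed the filter. *TEAD1*, the DNA-binding partner of YAP1, had 1993 to 2690 counts in the control libraries (named after its values were seen), and *AMOTL1*, a scaffold that binds YAP1, was the highest (230.5 ± 32.8 CPM, SD, n = 3), followed by the kinase gene *TAOK1*. *WWTR1*, the paralogue of *YAP1*, had 13 to 23 counts (also named after its values were seen). None of the 23 was called. The growth factor gene *CCN2*, a YAP1 target, was counted 136, 110 and 126 times in the control libraries and 68, 79 and 71 times after siKIFC1. All siKIFC1 libraries were below all controls, as for 7.65% of all genes tested. The log2 fold change of *CCN2* was -0.66 (SE 0.18, edgeR adjusted p = 0.179). Its adjusted p in the blocked edgeR fit was 0.0219, and the list then held 2 higher (*STK3* and *MOB1A*) and 3 lower genes (*CCN2*, *AMOTL1* and *VGLL4*) of 23, where that fit called 5.78% of all genes.

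Of 18 tuft cell genes and POU2F3 partners, 8 stayed at or under 3 counts in every control library and 9 passed the filter, with 0 called. The paralogue *POU2F1*, which is widely expressed, had 116.0 ± 24.1 CPM (SD, n = 3), and the progenitor factor *SOX9* had 36.1 ± 3.61 CPM with control siRNA and 43.9 ± 4.51 CPM with siKIFC1 (SD, n = 3, edgeR adjusted p = 0.462). Among 22 lung and endoderm genes linked to NKX2-1 and FOXA2, 12 passed the filter and 0 were called. The adhesion gene *EPCAM* (496.4 ± 1.95 CPM) and *LMO3* (309.0 ± 4.43 CPM, SD, n = 3) were the highest, while the surfactant genes *SFTPB* and *SFTPC* had at most 9 counts in any library. *FOXA3* had the largest fitted change among those with a mean log2 CPM of at least 2, at 5.88 ± 0.982 and 7.81 ± 2.75 CPM (SD, n = 3, edgeR adjusted p = 0.696). *NKX2-1-AS1* and *SFTA3*, which overlap *NKX2-1*, had 0 counts and at most 1 count per library. *SFTA3* shares 1033 exonic bases with *NKX2-1* on the same strand and *NKX2-1-AS1* shares 402 on the other. The *NKX2-1* counts are therefore uncertain to the extent that shared reads were left uncounted, which is not stated. The same limit applies to *NEUROD1*, which shares 236 exonic bases with *CERKL* on the same strand. On the opposite strand, *YAP1* shares 628 with a gene without a symbol and 11 with another, and *REST* shares 81 with *NOA1*.

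Of 19 genes linked to SOX2 and PROX1, 12 passed the filter and 0 were called. *FGFR1* (215.6 ± 25.9 CPM) and the RNA-binding protein gene *LIN28B* (108.5 ± 7.74 CPM, SD, n = 3, control siRNA) were the highest. *SOX21* was counted 259, 325 and 338 times in the control libraries and 212, 227 and 253 times after siKIFC1 (log2 fold change -0.30, SE 0.14, edgeR adjusted p = 0.552). The lymphatic genes *LYVE1* and *PDPN*, linked to PROX1, had 0 counts in all 6 libraries.

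**Figure D5:**
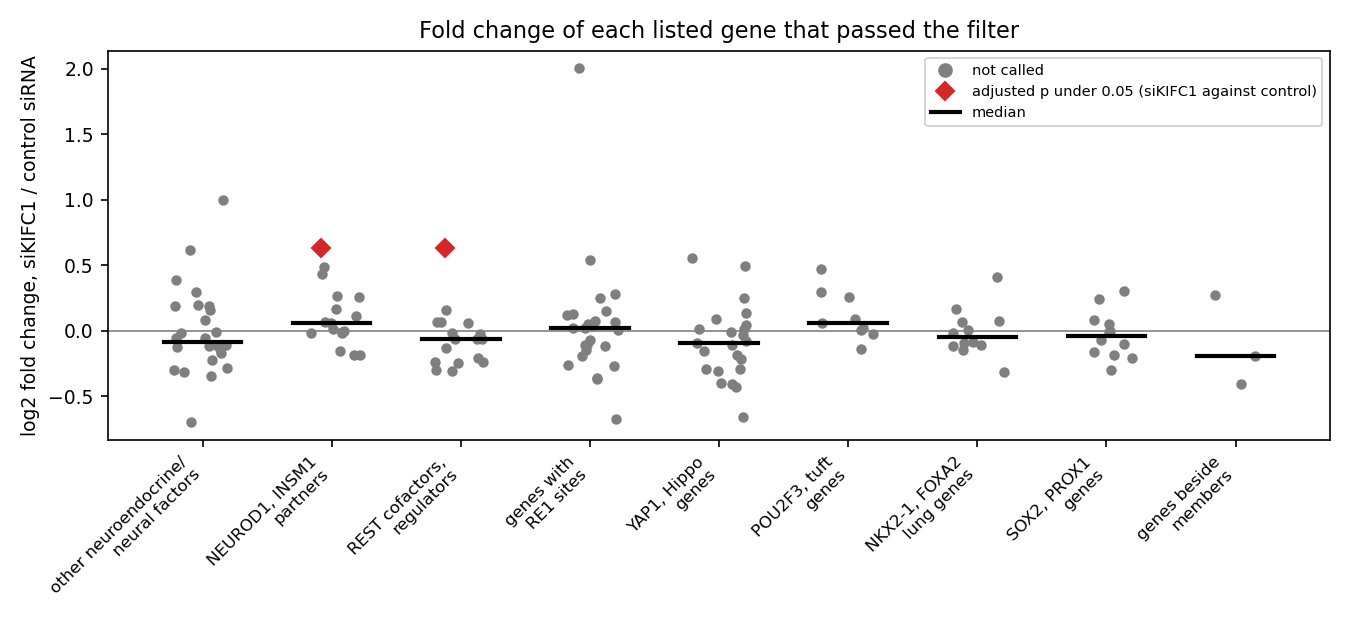
Log2 fold change (siKIFC1 over control siRNA) of each listed gene that passed the filter, by list, with medians as bars. The medians lie between -0.20 and 0.06, *HDAC1* (red diamond, shown in both lists that hold it) is the gene called at 0.63, and the point at 2.00 is *CHGA*.

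The genes whose log2 CPM followed each factor most closely over the 6 libraries were *PNP* and *EMC8* for *INSM1*, *INSIG2* and *NPEPPSP1* for *SOX2*, *PNMA1* and *PELP1* for *FOXA2*, and *STXBP5* and *ZNF281* for *PROX1*. Pearson's r of these genes lay between 0.987 and 0.999. Across all genes tested, the best partner of a gene had a median r of 0.994, beside which these values do not stand out. The 6 points share their cell line and series. Between the factors, *PROX1* ran opposite to *INSM1* (r = -0.911) and to *FOXA2* (r = -0.829) in this description without a test, while *SOX2* and *INSM1* had an r of -0.02. In siKIFC1 replicate 3 *PROX1* was at its highest CPM and *INSM1* and *FOXA2* at their lowest. How common such negative r values were among all genes was not examined.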

How the data were processed

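The authors aligned reads to GRCh38 with HISAT2 2.2.1 and counted them per gene with featureCounts 2.0.8, and they deposited whole, unnormalized counts per NCBI gene ID. The annotation, strand setting and treatment of multiply aligned reads are not given in the sources used here. RefSeq symbols matched 27745 of 28395 IDs, and the other 650 held 0.0618% of counts. Exon lengths came from GENCODE 44.

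The comparison of siKIFC1 with control siRNA used edgeR 4.0.16 under R 4.3.3, with filterByExpr, TMM scaling and a robust quasi-likelihood test. P-values were adjusted by Benjamini-Hochberg across 14776 genes and read at 0.05. Each standard error is |log2 fold change| over the root of the F statistic. The study's methods name DESeq2, used here (1.42.0) as an alternative, with limma-voom (limma 3.58.1), other scalings and filters, a replicate block and each library left out. Python 3.11.15 with scipy 1.17.1 gave the exact intervals. Tested on simulated counts for these groups and 14776 genes, the procedure recovered 175 of 200 genes given a log2 change of 1, with 7 false calls. The simulation gave every gene the same variation between libraries (coefficient of variation 13.15%) and no likeness between same-numbered libraries. Smaller changes, such as those fitted for the tested factors, were not simulated, so their recovery is not known.

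Same-numbered libraries deviated together from their group means (r = 0.488, 0.386 and 0.454 over 11803 genes, against -0.424 to -0.0310 for other pairs). Each group was centred on its own mean, so positive same-numbered pairs make the other pairs negative on balance. The other pairs are therefore no separate support for the pairing. The labels call the libraries biological replicates. The pairing, on which the replicate block rests, is taken from these r values of the same data. The labels do not say that cultures were separate, so p-values measure the spread between these libraries. The factors and lists were chosen with earlier results of these data known. Named are the factors, *KIFC1*, genes beside them, the most alike genes and, in each list, called genes, the 2 of highest mean CPM and the largest change at a mean log2 CPM of at least 2. Other list genes were named after their values were seen.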

Additional observations from a re-analysis of the deposited data

How the results depend on the processing

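The 4 tested factors were not called under any of 13 alternatives. The other 5 were fitted together only without a filter, where 0 of 9 were called, and 5 factors were tested in 4 of the fits with a library left out, with 0 called. In edgeR, limma-voom and DESeq2 the adjusted p of the 4 tested ranged from 0.195 to 1.000. The log2 fold change of *SOX2* was between -0.18 and -0.17 under other tests, scalings, filters and the replicate block and between -0.21 and -0.12 with a library left out. That of *INSM1* was 0.09 to 0.10 and 0.01 to 0.21. *FOXA2* ran from -0.19 to 0.00 with a library left out, its sign turning without siKIFC1 replicate 3 (0.0012), and *PROX1* from -0.25 to 0.09, turning without control siRNA replicate 3 (0.066) or siKIFC1 replicate 1 (0.079) or 2 (0.088). The cause was not tested. Over all genes 105 were called, 49 higher and 56 lower. DESeq2 called 263, the fit without a filter 265 and the replicate block 854 (402 higher, 452 lower), and fits with a library left out from 24 to 468. Among the 136 tested genes of the lists, the 1 call became 4 with DESeq2 and 4 without a filter (*HDAC1*, *ID1*, *NKX2-2* and *RUNDC3A* in both), 17 with the replicate block (10 higher, 7 lower), and 0 to 12 with a library left out. The block changed no call of a factor. Lengths from the longest transcript, in place of all exons, kept the place of 7 factors and exchanged *REST* and *NEUROD1*, and TMM scaling, chosen after the data were seen, kept all 9. The 5 near-absent factors are limited by depth, since 3 counts correspond to 0.169 to 0.195 CPM.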
